A study of Mus musculus with 7 samples.

Results

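The genes described here serve the red blood cell. They are Slc4a1, Trim10, Alas2, Hba-a1, Sptb (Spnb1 in older annotation), Klf1, Tal1 and Hemgn. All probes carrying one of these symbols were taken from the signal table, which gave 8 of 16593 genes, with 10 of 25697 probes, 3 of them for Trim10 and 1 for each other gene. Whole lungs of male mice aged 3 to 4 months were measured on 3 arrays for the claudin-18 knockout and 4 for the wild type. The knockout arose from a floxed Cldn18 allele crossed to CMV-cre mice, so that exon deletion was ubiquitous rather than limited to one cell type. Both genotypes had the same mixed 129S6/SvEvTac, C57BL/6J, Balb/c background and neither was treated. Whether the lungs were flushed of blood, and whether each array is a separate animal, is not given in the sources used here, so the p-values refer to the spread among arrays, which may be technical.

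Mature red cells of mammals have no nucleus, but the youngest ones in the circulation, the reticulocytes, still carry messenger RNA for globin, membrane and haem synthesis proteins. Lung tissue holds much blood in its capillaries and can also hold precursor cells, so red cell transcripts in a whole-lung extract report on blood as well as on tissue. In such bulk samples, fewer cells of a type and less RNA per cell cannot be told apart. In the precursors the program is run by GATA1, Tal1 and Klf1, which bind GATA, E-box and CACCC elements.

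The labels were checked on Cldn18 itself, whose signal was between 935 and 1875 on the knockout arrays and between 14718 and 27990 on the wild-type arrays. The knockout arrays were dimmer as a whole, with median signals from 259 to 349 against 355 to 468, and with 10291 to 11715 probes detected against 11211 to 12376. Detected means a detection p under 0.01. All arrays lay on 1 slide, in positions that held 1 genotype each, so position and genotype cannot be told apart. By limma on background-corrected, quantile-normalized log2 values, 1056 of 11902 probes tested passed an adjusted p of 0.05, or 8.87%, with 584 lower (4.91%) and 472 higher (3.97%) in the knockout. Median scaling in place of quantile normalization moved the median change of all probes from 0.02 to -0.14 and the lower share of these calls from 55.3% to 77.0%.

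Promoter sequence is shown for 3 members because they stand for a haem enzyme, a maturation factor and a globin of the same GATA-driven program. The windows come from RefSeq (GRCm38.p6), where 7 of the 8 members matched, Tal1 with 2 windows. Each line gives the 250 bases before the start site, read 5′ to 3′ on the gene's strand. Capitals mark matches on either strand to a GATA motif (GATA with A or T before it and A or G after it) or a KLF motif (CCNCNCCC); no GATA match overlapped a KLF match. The windows are chrX:150547167-150547416 for Alas2, chr17:36869324-36869573 for Trim10 and chr11:32283422-32283671 for Hba-a1, all on the plus strand.
Alas2: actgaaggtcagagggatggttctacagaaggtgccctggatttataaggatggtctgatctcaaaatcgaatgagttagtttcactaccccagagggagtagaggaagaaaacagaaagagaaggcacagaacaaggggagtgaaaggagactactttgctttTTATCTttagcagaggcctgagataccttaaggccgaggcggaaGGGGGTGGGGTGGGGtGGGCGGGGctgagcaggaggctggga
Trim10: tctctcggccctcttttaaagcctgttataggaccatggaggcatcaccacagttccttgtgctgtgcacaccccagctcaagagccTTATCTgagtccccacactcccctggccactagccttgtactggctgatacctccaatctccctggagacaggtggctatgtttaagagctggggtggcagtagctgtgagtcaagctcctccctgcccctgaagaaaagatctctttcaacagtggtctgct
Hba-a1: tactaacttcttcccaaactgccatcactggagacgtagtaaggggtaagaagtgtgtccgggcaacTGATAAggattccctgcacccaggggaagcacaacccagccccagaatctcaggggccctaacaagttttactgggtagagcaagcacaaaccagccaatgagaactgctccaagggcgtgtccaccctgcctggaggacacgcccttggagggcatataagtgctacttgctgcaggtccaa

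The GATA match began 86 bases upstream of the start in Alas2, 163 bases upstream in Trim10 and 183 bases upstream in Hba-a1. Over the full window of 250 bases before and 50 after the start, a GATA match was present in 7 of 8 member windows and in 29.8% of all 32851 windows. A KLF match was present in 4 of 8 member windows and in 49.5% of all windows. A match is only a run of letters.

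Of the 10 probes, 3 were detected on all 7 arrays and 2 on none. The filter, detection on at least 3 arrays, left 7 probes for 6 genes, and Klf1 and Hemgn were not tested. Of these 7 probes, 3 were lower (Slc4a1, Tal1 and 1 Trim10 probe), 0 were higher and 4 did not pass, where 4.91% of all probes were lower. The same 3 were the tested member probes whose groups did not overlap, where 12.4% of all probes did so in that direction. The Trim10 and Sptb probes passed the filter mainly through the wild type, so the share of lower probes among those tested is not a share of all members.

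**Figure D1:**
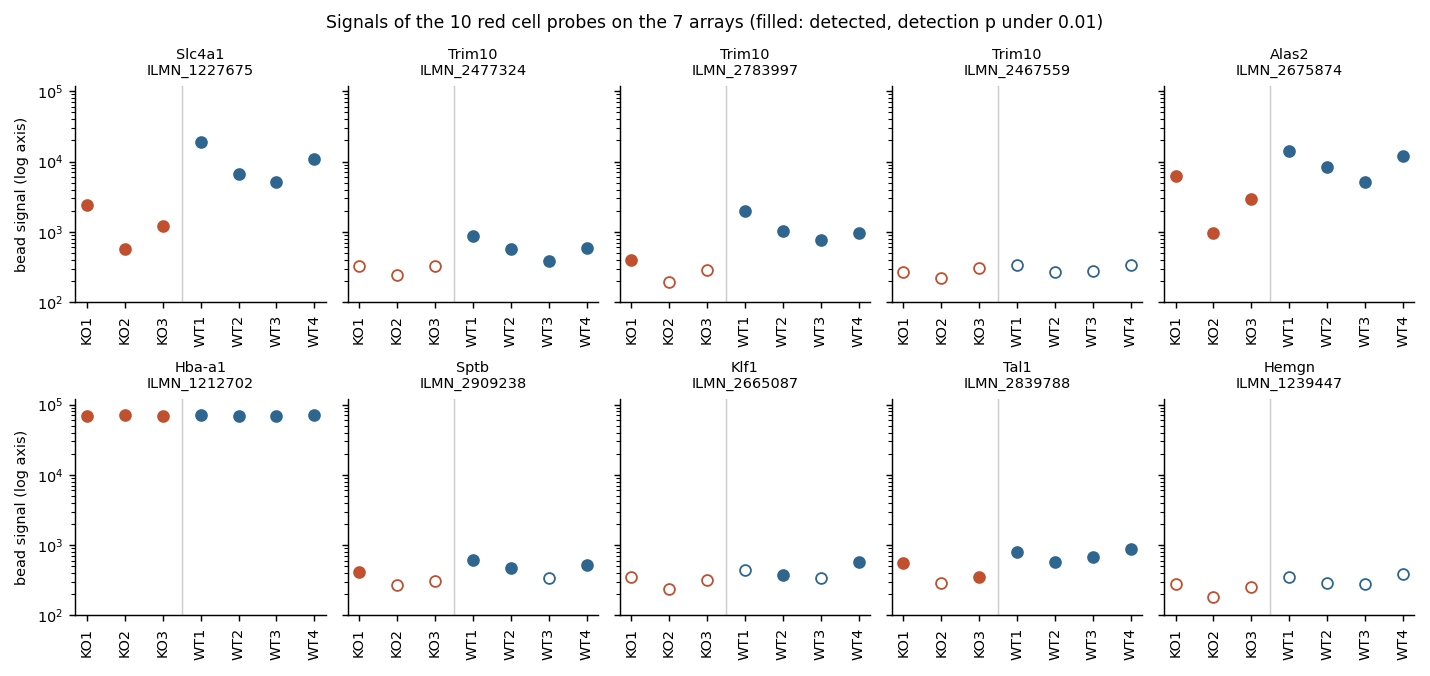
Bead signal of each of the 10 probes on each array (log axis), knockout arrays (KO) in orange and wild-type arrays (WT) in blue, with filled points where the probe was detected. Slc4a1 ran from 577 to 2392 in the knockout and from 5165 to 18788 in the wild type, while Hba-a1 stayed near the top of the range on all 7 arrays.

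Slc4a1 encodes band 3, the anion exchanger that swaps chloride for bicarbonate across the red cell membrane and anchors its skeleton. Its only probe, ILMN_1227675, gave signals of 2392, 577 and 1229 on knockout arrays 1 to 3 and of 18788, 6728, 5165 and 10748 on wild-type arrays 1 to 4. All knockout arrays were below all wild-type arrays, and the lowest array of each genotype was knockout 2 and wild type 3. The mean log2 level averaged 10.30 ± 0.88 (SD, n = 3) over the knockout arrays, against 12.94 ± 0.82 (SD, n = 4) over the wild-type arrays. Slc4a1 fell by 2.64 on the log2 scale (SE 0.49, limma adjusted p = 0.0116), or 6.23-fold. With 1 array left out at a time, the change ran from -2.97 to -2.13 and passed in each of these fits (limma adjusted p up to 0.0433, without knockout 2).

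Sptb encodes beta spectrin, the long protein of the lattice beneath the red cell membrane. Its probe gave signals of 411, 272 and 307 in the knockout and of 620, 473, 343 and 520 in the wild type, and passed detection on 1 array of the knockout and 3 of the wild type. The groups overlapped, with wild type 3 again the lowest of its group. The log2 difference of -0.41 (SE 0.37, limma adjusted p = 0.516) did not pass.

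Alas2 encodes the erythroid form of the first and rate-limiting enzyme of haem synthesis. Signals of its probe were 6226, 963 and 2974 in the knockout and 14266, 8471, 5172 and 12127 in the wild type. Wild type 3 lay below knockout 1, so the groups overlapped, and knockout 2 was far below the other arrays. The mean log2 level averaged 11.58 ± 1.145 (SD, n = 3) over the knockout arrays, against 12.96 ± 0.69 (SD, n = 4) over the wild-type arrays. The log2 difference was -1.37 (SE 0.51) and did not pass (limma adjusted p = 0.130). Leaving out knockout 2, the array with the lowest median signal, moved it to -0.71 (adjusted p = 0.365).

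Hba-a1 encodes the alpha chain of adult haemoglobin, and its near-identical copy Hba-a2 had no probe named for it, so the signal may come from both. Hba-a1 gave 68774, 71333 and 69733 in the knockout and 70879, 68202, 67969 and 70473 in the wild type. These are 93.7% to 99.9% of the highest signal of each array, and the probe ranked between the second and the 38th of 25697. A probe this close to the ceiling has little room to show a difference, so its log2 difference of 0.08 (SE 0.14, limma adjusted p = 0.772) is not given as a fold. Hba-a1 thus showed that globin transcript was abundant in all 7 extracts, and no more.

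Trim10 encodes a ubiquitin ligase of the tripartite motif family that acts in the late maturation of red cell precursors, and its 3 probes disagreed. ILMN_2783997 gave 391, 195 and 287 in the knockout, detected on knockout 1 only, and 1965, 1023, 764 and 954 in the wild type, detected on all 4 arrays. It fell by 3.40 on the log2 scale (SE 0.44, limma adjusted p = 0.00327) with no overlap, a change that includes knockout levels not above background. With the authors' deposited values the change was -1.16 (limma adjusted p = 0.0118).

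The second Trim10 probe, ILMN_2477324, gave 329, 247 and 329 in the knockout, none of them detected, and 879, 570, 383 and 580 in the wild type, all detected. Wild type 3 overlapped the knockout arrays on the normalized scale. This probe was at least 1.59-fold lower by the detection bound, in which undetected arrays stand at the lowest level detected there. It did not pass (log2 difference -1.40, SE 0.41, limma adjusted p = 0.0623). The third probe, ILMN_2467559, was between 218 and 339 on all arrays and detected on none.

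Among the transcription factors, Tal1, the basic helix-loop-helix factor needed to form blood, is also used by endothelium and its precursors. Its probe gave signals of 558, 290 and 358 in the knockout, with knockout 2 not detected, and of 806, 567, 682 and 869 in the wild type. On the normalized scale the groups did not overlap. Wild type 3 was not the lowest of its group, unlike in the other tested members.

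Tal1 fell by 0.93 (SE 0.25, limma adjusted p = 0.0472), or 1.90-fold. This call sat at the threshold and was lost in 10 of the 14 alternatives that gave a value, 6 of which left out knockout 2, knockout 3 or any single wild-type array. In those 6 the adjusted p was 0.187, 0.145, 0.0693, 0.0672, 0.0771 and 0.0968.

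The other nuclear members were near background. Klf1, the erythroid Krüppel-like factor that switches on adult beta globin, gave 355, 239 and 315 in the knockout, none detected. In the wild type it gave 440, 378, 340 and 571, with wild types 2 and 4 detected. Hemgn, a nuclear protein of blood precursors under GATA1 control, gave 184 to 279 in the knockout and 276 to 386 in the wild type and was detected on no array. Neither had a level from which a difference could be read, and the higher raw signals of the wild type run alongside its higher median signals.

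The members' changes were also set against each other within arrays, first with Hba-a1 as the reference. The log2 gap from Hba-a1 down to the brightest tested probe of each other member differed between genotypes by 2.72 for Slc4a1, 3.48 for Trim10, 1.45 for Alas2, 1.01 for Tal1 and 0.49 for Sptb. Because Hba-a1 sits at the ceiling and cannot move, these gaps repeat each gene's own change and do not test whether the members changed unequally.

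Alas2 was therefore used as the reference as well, a choice made after its values were seen. The gap from Alas2 down to Slc4a1 averaged 1.28 ± 0.26 (SD, n = 3) over the knockout arrays, against 0.02 ± 0.34 (SD, n = 4) over the wild-type arrays. The difference of 1.26 had no overlap but did not pass over the 5 comparisons made (two-sided exact permutation test over 35 splits, p = 0.0286, the smallest possible, adjusted p = 0.0714). Only Slc4a1 and Trim10 reached the smallest p, too few of the 5 for either to pass. That the difference for Slc4a1 did not pass therefore decides nothing. Other processing had the same 35 splits and did not pass either (exact permutation adjusted p from 0.107 to 0.143). With 1 array left out, too few splits remain for any result to pass, so those runs decide nothing here. The difference was -0.45 for Tal1 (exact permutation adjusted p = 0.429) and -0.96 for Sptb (adjusted p = 0.250), and neither passed. For Trim10 it was 2.03 (exact permutation adjusted p = 0.0714), but the probe was not detected on knockouts 2 and 3, and the value was 0.26 with no background correction and -0.15 with the authors' values.

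Slc4a1 and Alas2 ran together from array to array within each genotype. After each gene's genotype mean was removed, Slc4a1 stood at 0.57, -1.02 and 0.45 on the knockout arrays and at 0.98, -0.18, -0.999 and 0.20 on the wild-type arrays. Alas2 stood at 0.74, -1.32 and 0.58 and at 0.50, 0.14, -1.01 and 0.37. Both were thus lowest on knockout 2 and on wild type 3 by about a full log2 unit. These deviations had a Pearson correlation of 0.937 over 7 arrays, given as a description with no test.

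The Trim10 probe ILMN_2783997 correlated with Slc4a1 at 0.805 on this scale, and Trim10's ILMN_2477324 at 0.691. These probes were detected on 1 and 0 knockout arrays, so their knockout deviations are mostly values not above background. The values were 0.486 for Sptb, 0.435 for Tal1 and 0.03 for Hba-a1, whose deviations stayed between -0.10 and 0.07. Tal1 correlated with Hba-a1 at -0.72, but Hba-a1 is held at the ceiling, so this value does not show whether the members ran together. Outside the members, Fech (ferrochelatase, the last enzyme of haem synthesis) correlated with Slc4a1 at 0.964 by ILMN_2710731 and 0.857 by its brighter probe. The beta globins Hbb-b2 and Hbb-bt did so at 0.793 and 0.760, also lowest on knockout 2 and wild type 3. Fech ILMN_2710731 was detected on knockout 1 alone among the knockout arrays, and Hbb-bt was not detected on knockout 2. Their low knockout deviations thus include values not above background. Genes of other cells had values of 0.561 and 0.656 (Ppbp), 0.567 (Pf4), 0.580 (S100a8) and 0.556 (Cdh5). The Pecam1 probes had 0.629 and -0.129. Positive values above those of Sptb and Tal1 were thus not particular to red cell genes. These points share arrays and one normalization, and the Fech and beta globin probes were picked from the lists as red cell genes after their values were seen.

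**Figure D2:**
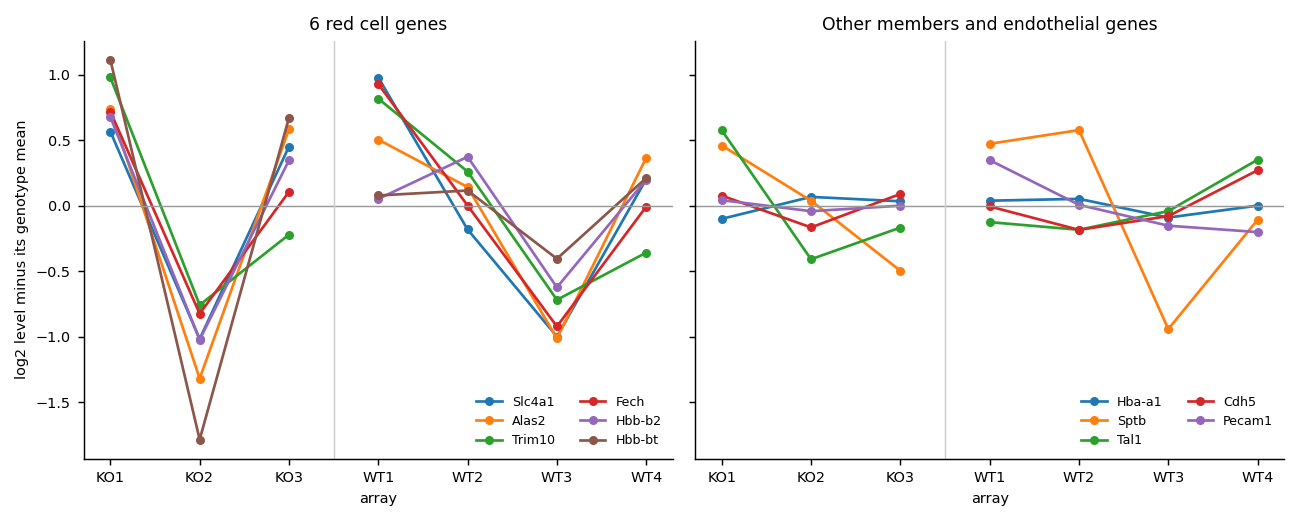
Log2 level minus the gene's genotype mean on each array, for 6 red cell genes on the left and for 3 other members and 2 endothelial genes on the right. The left-hand genes are lowest on knockout 2 and wild type 3, where Slc4a1 is at -1.02 and -0.999, while Hba-a1 on the right stays between -0.10 and 0.07. Fech is shown by ILMN_2710731 and Trim10 by ILMN_2783997. These probes and Hbb-bt were not detected on knockout 2.

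Wild type 3 was the lowest wild-type array for 6 of the 7 tested member probes, against 17.6% of all probes tested. Among these 6 are Hba-a1, at the ceiling, Sptb, not detected on wild type 3, and more than 1 probe of Trim10. The count is thus not one of 6 separate genes. Knockout 2 was the lowest knockout array for 5 of the 7, against 29.7% of all probes. Of these 5, the Trim10 and Tal1 probes were not detected on knockout 2. Knockout 2 also had the lowest median signal of all arrays (259), whereas wild type 3 had a median signal of 366 beside 355 on wild type 2. Whether signal depth has a part in the low values of knockout 2 was not tested.

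The other red cell lists did not share the low wild type 3 as a whole. It was the lowest wild-type array for 2 of 2 globin genes and 5 of 8 transcription factors, but for 2 of 10 haem synthesis, 0 of 7 membrane and 4 of 16 maturation genes. It was the lowest wild-type array for 9 of 10 platelet genes and 13 of 15 neutrophil genes tested, but for 0 of 7 lymphocyte genes and 2 of 13 endothelial genes. Among the 6 genes with the pattern most like the mean of Hba-a1, Alas2 and Slc4a1, the members detected on all arrays, none belongs to the red cell lists. These were Itpka, an inositol trisphosphate kinase (correlation of deviations 0.993 over 7 arrays), Pcyt2 (0.985), Plin4, a lipid droplet protein (0.977), Ifngr1 (0.964), Ctc1 (0.962) and Csad (0.954). Of 9478 probes detected on all arrays, 31 had a correlation over 0.9. That count includes Slc4a1 (0.984) and Alas2 (0.982), which are part of the mean. Plin4 alone of these 6 genes passed between genotypes (-0.74, SE 0.20, limma adjusted p = 0.0468).

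The members were next read beside 5 further lists of red cell genes, with 1 probe per gene, the brightest. Across these lists, 1 of 43 tested genes was lower and 1 was higher, where 5.11% of all named genes were lower and 3.68% higher. Their median change was -0.08, against 0.01 over all 8537 named genes. These counts leave out genes that failed the filter: 5 of the 7 globin and 14 of the 26 membrane probes were detected on no array. The tested genes include some with use in other cells, such as Alas1 and Tmod1. The counts therefore do not show that red cell transcripts were unchanged. At an unadjusted p under 0.05, in either direction, there were 13 of the 43, beside 2190 of all 8537 named genes. The lower genes numbered 3 with no background correction, with a variance trend or with the authors' values, and 4 with median scaling.

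Both beta globin genes tested had lower means in the knockout without passing. Hbb-b2 gave signals of 5852, 1122 and 2500 in the knockout and 9303, 8557, 5810 and 9378 in the wild type (log2 difference -1.18, SE 0.39, limma adjusted p = 0.0927). Hbb-bt gave 818, 244 and 465 against 1314, 936, 876 and 1225 (-1.49, SE 0.57, adjusted p = 0.139). These probes were not at the ceiling, and each had overlapping groups, with Hbb-bt not detected on knockout 2. With median scaling both passed (adjusted p = 0.0458 and 0.0497), under the shift of all probes given above. The embryonic globins Hba-x, Hbb-y and Hbb-bh1 were detected on no array, and Hbb-b1 had no named probe. Beta globin genes are near-identical in part, so these signals may hold more than one of them.

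In the haem pathway limma called no gene in either direction among 10 tested. Of these, 4 had an unadjusted p under 0.05, beside 2190 of all 8537 named genes. Fech gave -0.75 (SE 0.28, limma adjusted p = 0.124), every knockout array lying below every wild-type array. Its dimmer probe, detected on 1 knockout array, gave -1.34 (adjusted p = 0.0923). Alad, the cytosolic second enzyme, gave 0.51 (SE 0.15, adjusted p = 0.0678), with the knockout arrays above the wild-type arrays. Alas1, the housekeeping counterpart of Alas2, gave -0.03 (adjusted p = 0.936). The list's median change was 0.01.

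In the membrane skeleton list, 1 of 7 tested genes passed, and it was higher. Tmod1, which caps actin filaments in the red cell skeleton and in other cells, rose by 1.08 (SE 0.19, limma adjusted p = 0.00908). The adjusted p was 0.0529 without knockout 2. Of the 5 Ank1 probes, the tested one gave -0.14 (adjusted p = 0.739). Ank1 probes ILMN_2715601 and ILMN_1244879, detected on 2 and 1 wild-type arrays and on no knockout array, were not tested, and their mean log2 levels were 5.38 against 6.74 and 5.33 against 6.18, without overlap. Of the list's 26 probes, 14 were detected on no array, among them those for Rhag, Rhd and Epb42. Of the list's 15 genes with a probe, 7 were tested, so the list gives no change for the rest.

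Among red cell transcription factors, 1 of 8 was lower and 0 were higher. Lmo2, the adaptor that joins Tal1 to GATA factors in blood and endothelium, fell by 0.64 (SE 0.14, limma adjusted p = 0.0238). Its adjusted p was 0.0641, 0.114 and 0.0778 without knockouts 1, 2 and 3, and 0.0537 and 0.0596 without wild types 2 and 3. With median scaling it was 0.0550 and with a replicate block 0.0966. Gata1 was detected on no array by either probe. None of 16 maturation genes passed, with 2 at an unadjusted p under 0.05, and the largest differences were Ube2l6 (-0.68, adjusted p = 0.106) and Xpo7 (-0.58, adjusted p = 0.196). Car2 gave -0.42 (adjusted p = 0.407) and the transferrin receptor Tfrc 0.25 (adjusted p = 0.516).

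Genes that bind or clear haem and iron, largely products of macrophages and epithelium, included 1 lower and 2 higher among 9 tested. Of all named genes, 5.11% were lower and 3.68% higher. Lcn2, a lipocalin that binds iron carriers, rose by 1.48 (SE 0.21, limma adjusted p = 0.00461). Hmox2, the constitutive haem oxygenase, rose by 0.63 (SE 0.17, adjusted p = 0.0444), but did not pass without any single knockout array, nor without wild type 2 or 4 (adjusted p from 0.0726 to 0.160), and had 0.263 with median scaling, 0.0713 with no filter and 0.137 with a replicate block. Cd163, the macrophage receptor for haemoglobin bound to haptoglobin, was at least 1.28-fold lower with the settings used (adjusted p = 0.0258), with detection on 0 arrays of the knockout and 4 of the wild type. The adjusted p for Cd163 was 0.0834, 0.119, 0.0576 and 0.0591 when knockout 1, knockout 2, wild type 2 or wild type 3 was left out. The Cd163 call was also lost with no background correction (-0.27, adjusted p = 0.109), the authors' values (-0.18, adjusted p = 0.143), a variance trend (adjusted p = 0.0530) and a replicate block (adjusted p = 0.0573). The inducible haem oxygenase Hmox1 gave 0.45 (adjusted p = 0.247).

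**Figure D3:**
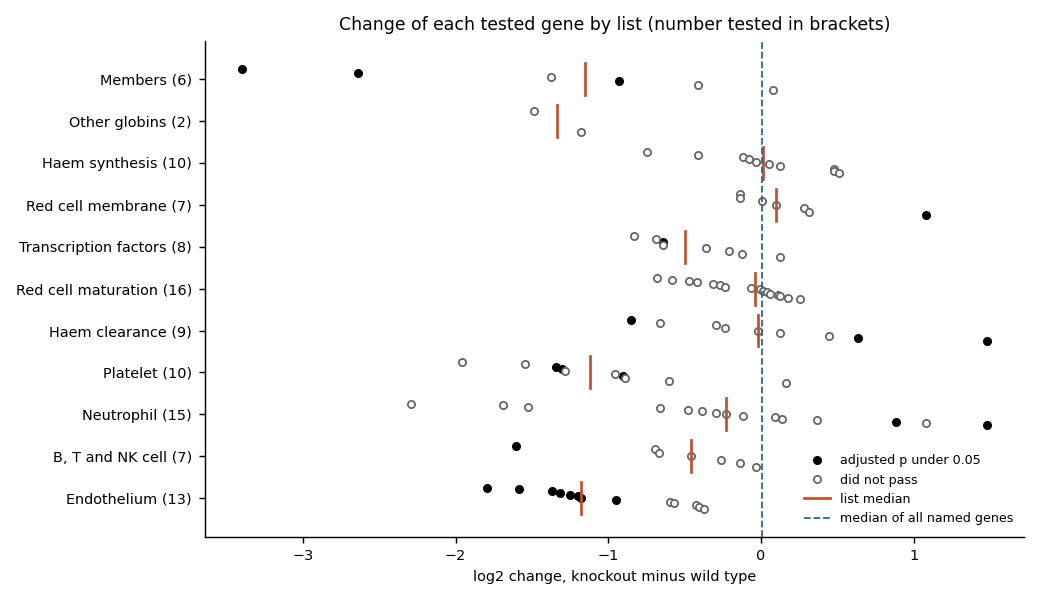
Log2 change (knockout minus wild type) of each tested gene in the member list and 10 further lists, with filled points past the threshold, red bars at list medians and a dashed line at the median of all named genes. The member median is -1.15, that of the 2 other globin genes is -1.33, and the platelet and endothelium medians are -1.12 and -1.18. The remaining red cell lists have medians between -0.50 and 0.10.

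Lists for other cells of the blood and the vessel wall were read beside the members. Platelet genes were lower for 3 of 10 tested and higher for 0, with a median of -1.12, where 5.11% of all named genes were lower. Of the 10, 9 had an unadjusted limma p under 0.05, beside 2190 of all 8537 named genes. Alox12, the platelet lipoxygenase, fell by 1.34 (SE 0.33, limma adjusted p = 0.0333), Gp5 of the von Willebrand receptor by 1.31 (adjusted p = 0.0278), and Vwf, shared with endothelium, by 0.91 (adjusted p = 0.0213). The Alox12 call was lost in 6 of 15 alternatives, with no filter and without knockout 2, knockout 3, wild type 1, wild type 2 or wild type 4 (adjusted p from 0.0560 to 0.126). The Gp5 call was lost in 7 of 15, with no filter, the authors' values (-0.54) or a replicate block and without knockout 1, knockout 2, wild type 1 or wild type 4 (adjusted p from 0.0523 to 0.116). The Vwf call was lost with a replicate block and without knockout 1 or knockout 2 (adjusted p from 0.0628 to 0.0958). Ppbp gave -1.28 by its brighter probe (adjusted p = 0.0505) and -1.50 by the other (adjusted p = 0.0456), and Pf4 gave -0.60 (adjusted p = 0.188). The summed raw signal of the platelet genes was 6503 to 12314 in the knockout and 16850 to 28464 in the wild type. Such sums are not normalized, and over all probes tested they were 22426618 to 37671473 and 31118956 to 40819852. The platelet genes averaged 8.13 to 8.66 against 8.61 to 9.96 on the normalized log2 scale, so the groups overlapped.

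Of 15 neutrophil genes tested, 0 were called lower and 2 higher, namely Lcn2, also in the iron list, and Chil3 (0.89, limma adjusted p = 0.0492). Of all named genes, 5.11% were lower and 3.68% higher. The list as a whole was not raised: 9 of the 15 changes were below 0, with a median of -0.23 and a lowest of -2.29. Of the 15, 6 had an unadjusted p under 0.05, in either direction, beside 2190 of all 8537 named genes. S100a8 (-0.12, adjusted p = 0.856) and S100a9 (-0.39, adjusted p = 0.653) did not pass. The summed raw signal of the neutrophil genes overlapped, from 82236 to 140023 in the knockout and from 73366 to 167777 in the wild type. Of the lymphocyte genes 1 of 7 was lower, Cd79a of the B cell receptor (-1.60, limma adjusted p = 0.00168), where 5.11% of all named genes were lower. Cd79a was at -0.80 with no background correction and -0.61 with the authors' values, and passed in both. An unadjusted p under 0.05 was found for 4 of these 7 genes, beside 2190 of all 8537 named genes. Summed raw signals of the lymphocyte genes were 3594 to 5908 and 7459 to 8755, and their mean normalized levels 8.83 to 8.89 and 9.22 to 9.68. Over these 3 lists the 4 lower genes became 1 when knockout 2 was left out, 2 when wild type 1 was and 12 when wild type 3 was, and the 2 higher genes became 1 without any single array other than knockout 1.

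Endothelial genes, from a cell type that also uses Tal1 and Lmo2, were lower for 8 of 13 tested and higher for 0, with a median of -1.18. All named genes were lower for 5.11%. Of the 13, 12 had an unadjusted limma p under 0.05, beside 2190 of all 8537 named genes. Pecam1 fell by 1.18 (SE 0.17, limma adjusted p = 0.00541) and the vascular cadherin Cdh5 by 1.20 (SE 0.17, adjusted p = 0.00434). Calcrl (-1.79), Tie1 (-1.58) and Flt1 (-1.37) had the largest changes. The summed raw endothelial signal was 49415 to 91775 in the knockout and 115934 to 168226 in the wild type. Raw sums carry the lower signal of the knockout arrays as a whole. The mean normalized log2 levels were 11.08 to 11.36 and 12.10 to 12.39, so the groups did not overlap on that scale either. The part of endothelial, platelet or whole-blood content in the members' falls was not tested. The deviations of Cdh5 and of the Pecam1 probe ILMN_2700982 stayed between -0.20 and 0.35, and those of the other Pecam1 probe between -0.53 and 0.29.

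**Figure D4:**
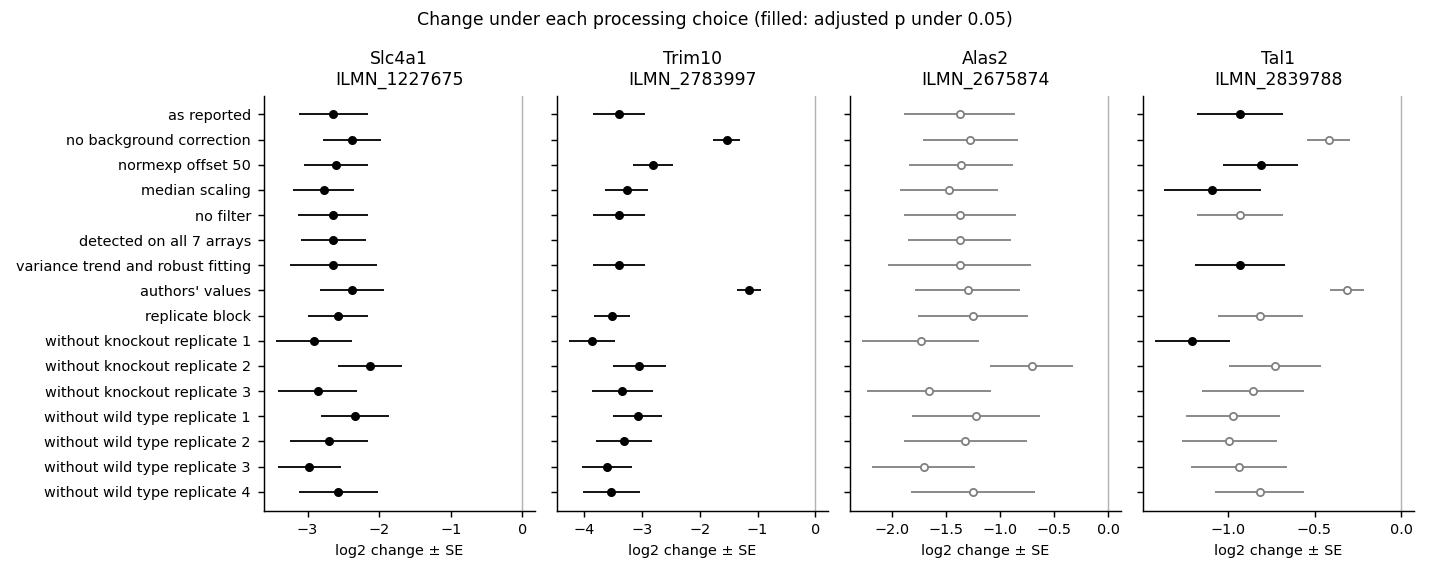
Log2 change with its SE (bars) for 4 member probes under each processing choice and with each array left out, filled where the adjusted p is under 0.05. Slc4a1 and the Trim10 probe ILMN_2783997 pass in every fit shown, Alas2 in none, and Tal1 as reported and in 4 alternatives. With a variance trend, Slc4a1 passes only just (limma adjusted p = 0.0497).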

How the data were processed

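RNA of whole lungs (1 µg per array, 7 arrays) was hybridised to bead arrays of the Illumina mouseRef-8 v2 design, per the labels. The authors' deposited table gives mean bead intensity per probe on a linear scale with a detection p-value, per the file headers. The authors' second deposited table holds log2-like values, for which the submitters' processing notes name lumi 1.14.0 and R 2.11.1. The exact transformation is not given in the sources used here, and these values served as an alternative.

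From the intensities, limma 3.58.1 under R 4.3.3 ran neqc (background inferred from the detection p-values, offset 16, quantile normalization, log2), a filter of detection p under 0.01 on at least 3 arrays, lmFit and eBayes, and Benjamini-Hochberg adjustment over all 11902 probes kept. Changes are knockout minus wild type. Gene names come from the platform annotation, updated through RefSeq, and 23978 of 25697 probes carried 1 symbol. Figures were drawn with Python 3.11.15.

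Members and gene lists were chosen with earlier results of these data known. All member probes are given, and each other list by its largest changes (up to 3 past the threshold, otherwise up to 2) and preset genes. Genes most like the members were the top 6 by correlation of deviations from the genotype mean. The fit was tested on simulated data. Alternatives were other background corrections, scaling, filters, variance models, the authors' values, a replicate block and each array left out. Arrays with the same replicate number had correlations of deviations of -0.02, -0.0044 and -0.14, so the numbers were not taken to pair them. The number of arrays limits the precision.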

Additional observations from a re-analysis of the deposited data

Results flagged for a closer look

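In the wild type, 8 of 126 listed probes had an array set far from the other 3, by its gap to the nearest as a share of the whole range. Chance flags about 1 in 20 such groups. No member probe was among them. On wild type 3, S100a8 was low (gap 0.848 of the range, at 14.5 against 15.9 to 16.09 on the log2 scale), and so was Mmp9 (0.853, at 9.02 against 10.4 to 10.7), while the Chil3 probe ILMN_2712986 was high (0.865). On wild type 1, Alad (0.926) and Cd59a (0.853) were low, and Cat (0.831) and the endothelial gene Esam (0.846) were high. On wild type 2, the Hp probe ILMN_2668509 was high (0.857).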

How the results depend on the processing

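The changes of Slc4a1 (from -2.97 to -2.13) and of the Trim10 probe ILMN_2783997 (from -3.87 to -1.16) passed in all alternatives run. Slc4a1 passed near the threshold with a variance trend and robust fitting (limma adjusted p = 0.0497) and without knockout 2 (0.0433). The changes of Alas2, Sptb and Hba-a1 passed in none, and no sign turned among these genes (Hba-a1 from 0.04 to 0.50). The change of Tal1 did not pass with no background correction (-0.42), no filter (-0.93), the authors' values (-0.31) or a replicate block (-0.81), and ran from -1.20 to -0.73 with 1 array left out. The Trim10 probe ILMN_2477324 passed with median scaling (-1.43) and under robust fitting with a variance trend (-1.40) and without wild type 3 (-1.75), and ran from -1.75 to -1.10 with 1 array left out. The 3 lower member probes became 1 among probes detected on all 7 arrays, which leaves out Trim10 and Tal1, and were 2 to 3 with 1 array left out.

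Lower genes in the other red cell lists numbered 3 with no background correction, 2 with offset 50, 4 with median scaling, 2 when detected on all 7 arrays, 3 with a variance trend, 3 with the authors' values, 0 with a replicate block and 0 to 1 with 1 array left out. Higher ones numbered 2 with no background correction, a variance trend or the authors' values, and 0 to 1 with 1 array left out. In the platelet, neutrophil and lymphocyte lists, lower genes numbered 11 with median scaling, 2 with a replicate block and 1 to 12 with 1 array left out, and higher genes 1 with median scaling, no filter or a replicate block and 1 to 2 with 1 array left out. The gap of Hba-a1 to Slc4a1 (2.46), Tal1 (0.40) and Trim10 (1.24) was smaller with the authors' values, and ran from 2.16 to 3.05, 0.76 to 1.34 and 3.09 to 4.01 with 1 array left out. With Alas2 as reference, Trim10 turned sign with the authors' values (-0.15) and Tal1 ran from -0.80 to 0.015 with 1 array left out. The cause was not tested. All probes past the threshold numbered 401 with a replicate block, 302 without knockout 2 and 465 without knockout 3. The numbers of the replicate block pair no animals known from the labels. Signal over background limits Klf1, Hemgn, Sptb and Trim10, and the ceiling limits Hba-a1.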
